A study of Mus musculus with 61 samples.

Results

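Nicotinic acetylcholine receptor subunits were followed through the whole mouse brain. The 8 genes were Chrna2, Chrna3, Chrna4, Chrna5, Chrna7, Chrnb2, Chrnb3 and Chrnb4, of 16358 genes that the array could name through a RefSeq accession. All 8 encode subunits of neuronal channels, and each gene was read from its brightest probe. Gene expression had been measured on 1 array for each of 61 fractions, 1 mm thick, each pooled from 200 serial sections of a frozen brain. The fractions came from 6 C57BL/6J males aged 8 weeks, with 1 brain cut into each series. The C and Co series (13 and 16 fractions) were coronal, H and Ho (6 and 7) horizontal, and S and So (9 and 10) sagittal. The oblique series Co, Ho and So were cut at a slight angle to the first set. The study matched fractions of 2 mice as near replicates, which gave 28 pairs, and 5 fractions had no partner. Partners were the fractions with the highest correlation of these same array intensities, with fraction order deciding ties. Agreement between partners is therefore partly built in, and p-values that rest on their spread may be too small.

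Nicotinic receptors are cation channels that open when acetylcholine or nicotine binds. Each channel is a ring of subunits, and the subunits present set its affinity, its calcium permeability and how fast it desensitizes. Alpha subunits such as the products of Chrna2, Chrna3, Chrna4 and Chrna7 carry the principal face of the binding site, Chrnb2 and Chrnb4 products complete it, and the products of Chrna5 and Chrnb3 act as accessory subunits. Chrna4 with Chrnb2 makes the main high-affinity nicotine site of the brain, Chrna7 forms channels on its own, and Chrna3 with Chrnb4 is best known from autonomic ganglia and the medial habenula.

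Chrna5, Chrna3 and Chrnb4 are neighbours in this order on chromosome 9 of the RefSeq annotation of GRCm38.p6, with Chrna5 and Chrna3 overlapping at their ends, and Chrnb3 lies next to Chrna6 on chromosome 8. The 250 bases before the annotated starts of the chromosome 9 genes are shown because their profiles were compared as a cluster. Capitals mark the GC box GGGCGG on either strand (CCGCCC on the other), and overlapping matches would run together.
Chrna5 (chr9:54980630-54980879, plus strand): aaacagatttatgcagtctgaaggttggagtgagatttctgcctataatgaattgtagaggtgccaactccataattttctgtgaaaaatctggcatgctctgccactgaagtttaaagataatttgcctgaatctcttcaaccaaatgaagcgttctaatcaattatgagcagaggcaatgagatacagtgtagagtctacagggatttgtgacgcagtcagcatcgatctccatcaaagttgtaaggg
Chrna5 (chr9:54981238-54981487, plus strand): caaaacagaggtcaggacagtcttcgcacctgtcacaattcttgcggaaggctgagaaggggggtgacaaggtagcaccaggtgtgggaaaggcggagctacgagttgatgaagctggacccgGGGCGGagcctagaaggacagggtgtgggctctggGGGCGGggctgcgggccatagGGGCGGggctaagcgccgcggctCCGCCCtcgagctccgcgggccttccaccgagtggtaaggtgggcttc
Chrna3 (chr9:55026563-55026812, minus strand): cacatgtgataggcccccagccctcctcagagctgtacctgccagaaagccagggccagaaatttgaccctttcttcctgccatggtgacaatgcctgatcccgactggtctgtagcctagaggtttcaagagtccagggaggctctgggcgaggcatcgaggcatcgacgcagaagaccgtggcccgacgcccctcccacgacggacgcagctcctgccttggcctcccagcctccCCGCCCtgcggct
Chrnb4 (chr9:55048545-55048794, minus strand): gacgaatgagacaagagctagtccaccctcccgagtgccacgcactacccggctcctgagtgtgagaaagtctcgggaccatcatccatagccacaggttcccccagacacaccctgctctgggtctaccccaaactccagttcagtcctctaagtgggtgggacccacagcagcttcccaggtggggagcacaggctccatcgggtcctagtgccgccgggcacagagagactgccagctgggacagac
The sequences are RefSeq's, 5′ to 3′ on the strand of the gene. Chrna5 had 2 annotated starts, with 0 GC boxes before the first and 4 before the second. Chrna3 had 1 and Chrnb4 had 0. A GC box was present in 32.7% of 32851 such windows, and a TATA box (TATAAA on either strand, in 12.4% of windows) in none of the 4.

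Several regional genes were used to check the fractions. Slc6a3, the dopamine transporter of midbrain neurons, was highest in C6 and Co7. Pcp2, a Purkinje cell gene, was highest in C3 and Co5, and Eomes, expressed by olfactory bulb projection neurons, in C13 and Co15. Other genes of the marker lists peaked elsewhere: Pou4f1 and Tac2, listed for the habenula, in C1 and Co1, and Th, listed for dopamine neurons, in C13 and Co15. The share of probes well above background was 57.9% to 73.0% per array. It was lower in the sagittal than in the other series, with medians of 63.7% in S and 61.9% in So against 66.1% to 69.6% in the other 4. Levels are given as a percentage of the 75th percentile of all probe signals on the same array, and they can be compared between fractions for 1 probe but not between genes. In such bulk tissue, fewer expressing cells and less RNA per cell cannot be told apart.

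All 8 subunits varied between the pairs of fractions by limma's moderated F test (adjusted p under 0.05), in a dataset where 61.2% of 36504 probes did. The F statistic was 40.6 for Chrna4, 25.7 for Chrna7, 19.7 for Chrnb3 and 14.2 for Chrna5, for which the partner fractions differed by an SD of 0.18 to 0.47 on the log2 scale. It was 9.49 for Chrnb2 and 8.82 for Chrna2. Chrnb4 and Chrna3 had the least separation, with F of 5.12 (adjusted p = 6.8e-05) and 3.18 (adjusted p = 0.00323), and they were well above background in only 29 and 32 of the 61 fractions. Neither passed when fractions were paired by equal number in place of the study's pairing (adjusted p = 0.758 and 0.364). With equal numbers 43.3% of all probes varied.

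**Figure D1:**
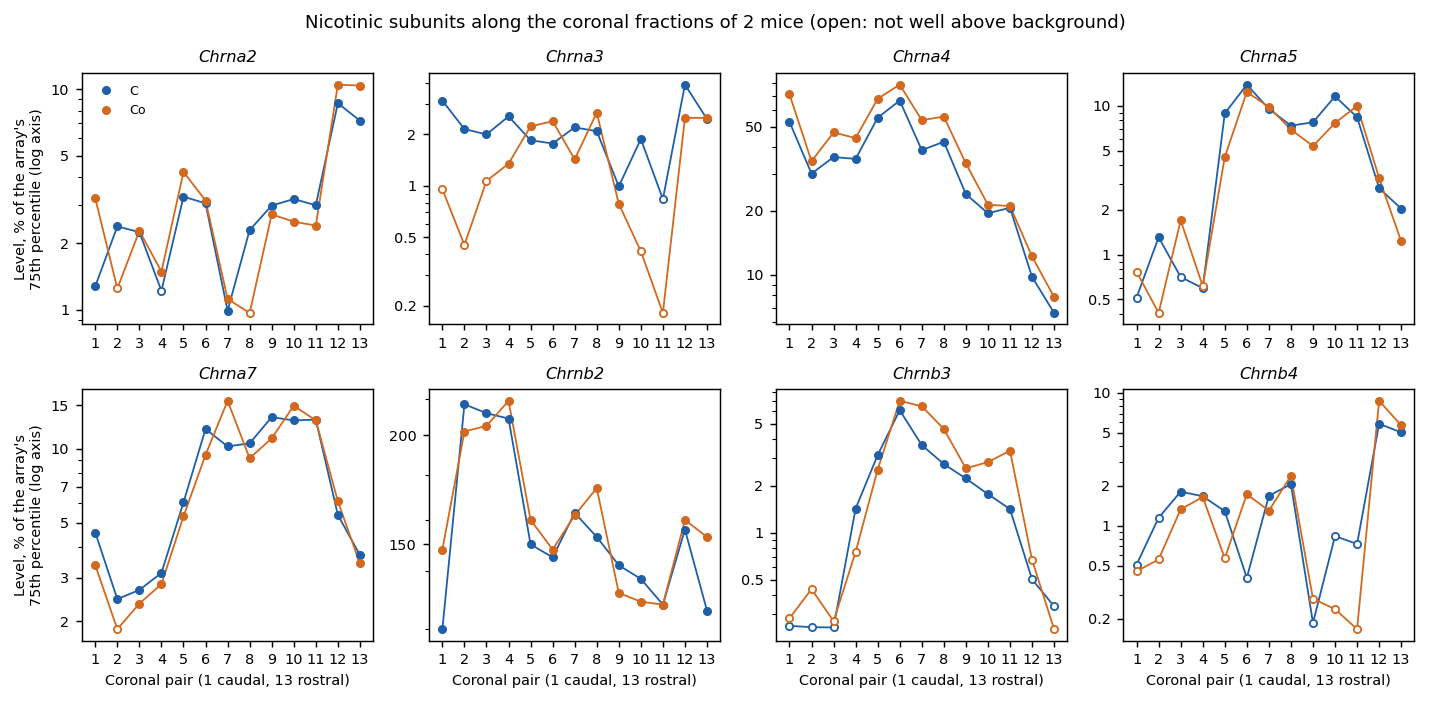
Level of each subunit along the 13 coronal pairs from caudal (1) to rostral (13), as a percentage of the array's 75th percentile on a log axis of its own for each gene. Blue points are the C mouse and orange points the Co mouse, with open points not well above background. Chrna4, Chrna5 and Chrnb3 peaked at pair 6 in both mice and Chrna2 and Chrnb4 at pair 12.

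Chrna4, the ligand-binding partner of Chrnb2, was well above background in all 61 fractions. It ran from 6.61% in C13 through a median of 35.2% to 66.3% in C6 along the C series, and from 6.83% in Co16 through 38.9% to 78.8% in Co7 along the Co series. C6 and Co7 were partner fractions, and they were also those in which Slc6a3 peaked. These levels are of the brighter of 2 probes, and the second was highest in Co9 (37.8%). In the horizontal series the peak was 62.1% in H4 and 62.9% in Ho5, also partners, over medians of 33.3% and 29.2%. In the sagittal series it was 62.8% in S7 and 55.2% in So7, again partners, and the lowest levels were 15.3% in S2 and 16.9% in So1. With this brighter probe the lateral fractions were low on both sides, with 19.3% in S9 and 21.4% in So10 on the right. The second probe had no such deficit, with a medial mean of 23.9% and a lateral mean of 26.5% (limma adjusted p = 0.418). When the 28 pairs were ordered by level, c6 (C6 with Co7) stood first, h4 (H4 with Ho5) and c1 (C1 with Co2) came next, but c6 exceeded h4 by 0.21 against an SD between partners of 0.18, and only 6 of the 27 steps between neighbours in this order were larger than that SD.

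Chrnb2, the partner of Chrna4 and the most widely used beta subunit of the brain, varied least. Its lowest level over all fractions was 59.4% in Ho1 and its highest 219% in Co5, a span of 1.88 on the log2 scale, compared with 3.58 for Chrna4. The 3 pairs with the highest levels were c4, c2 and c3. In them the C mouse had 209%, 217% and 212% and the Co mouse 219%, 202% and 205%, with no overlap with the other coronal pairs, which lay between 120% and 174%. These were the fractions at and around the peaks of cerebellar genes. The order of these 3 pairs was not resolved, since c4 exceeded c2 by 0.03 with an SD between partners of 0.10.

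Chrna2 encodes a ligand-binding subunit that is rare in rodent brain and best known from the interpeduncular nucleus. It had its highest levels at the rostral end, with 8.65% in C12 and 7.21% in C13 over a C series median of 2.97%, and 10.5% in Co14 and 10.4% in Co15 over a Co series median of 2.61%. All 4 exceeded every other coronal fraction. Co16, the most rostral fraction, had 5.61%. A smaller maximum lay at the partner fractions C5 and Co6 with 3.26% and 4.22%, whereas C7 and Co9 had 0.991% and 0.968%. From top to bottom of the brain, Chrna2 was lowest at 0.725% in H1 and 0.381% in Ho3 and highest at 5.56% in H5 and 4.71% in Ho6, which were partners. It was highest near the midline, at 4.00% in S6 and 4.35% in So6, also partners, but only 3 of 9 S and 4 of 10 So fractions were well above background.

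Chrna3 and Chrnb4, the pair of ganglionic type, were dim in most fractions. Along the C series Chrna3 ran from 0.838% in C11 through a median of 2.09% to 3.91% in C12, and along the Co series from 0.181% in Co12 through 1.33% to 2.68% in Co9. The coronal peaks of Chrna3 in the 2 mice were not partners. Chrnb4 ran from 0.186% in C9 through a median of 1.29% to 5.87% in C12, and from 0.167% in Co12 through 1.32% to 8.73% in Co14, and C12 and Co14 were partners. In the sagittal series both genes were well above background only in fractions at the midline or, for So5, next to it on the left. For Chrna3 these fractions were S6 with 2.35% and So5 with 3.28%, over medians of 0.573% and 0.634%. For Chrnb4 they were S6 with 3.42%, So5 with 3.84% and So6 with 4.97%, over medians of 0.707% and 0.797%.

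The highest Chrnb4 level of all 61 fractions was 11.4% in H1, the most dorsal fraction of the H series, where the other H fractions lay between 0.747% and 3.13%. Its partner Ho2 had 1.92%. Chrna3 was also highest in H1 within the H series, at 2.43% against 1.27% in the next fraction. Genes of the pineal gland, which lies on the dorsal midline, were examined after this value had been seen. Tph1, the first enzyme of melatonin synthesis, was at 337% in H1 and at most 47.0% in any other fraction. Crx, a pineal and retinal transcription factor, was at 12.8% in H1 and at most 1.80% elsewhere. Lhx4 and Pde6b were also highest in H1, at 10.5% and 7.30%, whereas Aanat, well above background in 4 fractions, was at 1.49% in H1 and highest in So1 at 2.15%. Of 5 such genes measured, 4 were therefore highest in H1, and their part in the Chrnb4 level was not tested.

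**Figure D2:**
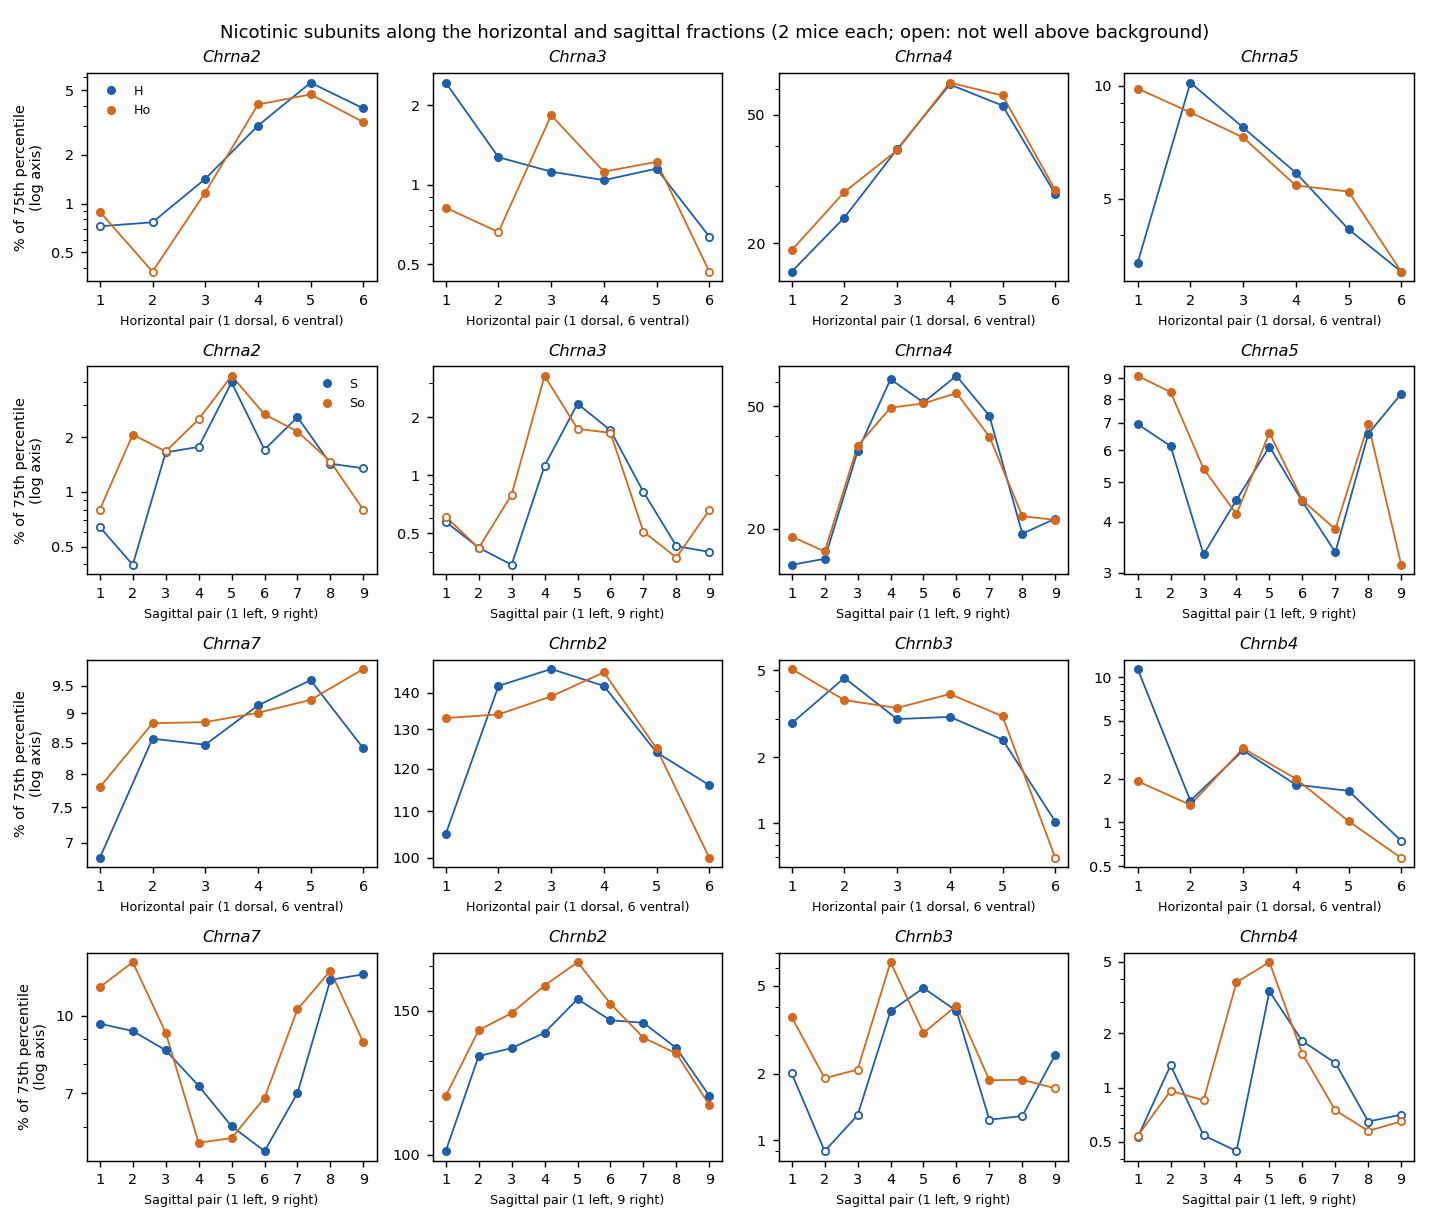
Level of each subunit along the 6 horizontal pairs (dorsal to ventral) and the 9 sagittal pairs (left to right), as a percentage of the array's 75th percentile on a log axis of its own for each panel. Blue points are the H or S mouse, orange points the Ho or So mouse, and open points were not well above background. Chrna2 was highest at horizontal pair 5 and Chrna4 at horizontal pair 4, Chrna5 declined from pair 2 to pair 6, and Chrna7 was lowest at the midline.

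Chrna7, the subunit that forms channels on its own, was well above background in 60 of 61 fractions. It ran from 2.46% in C2 through a median of 6.06% to 13.4% in C9, and from 1.86% in Co3 through 6.55% to 15.6% in Co8. Its high levels formed a plateau in place of a peak, between 9.14% and 15.6% from C6 to C11 and from Co7 to Co13, and the top pair, c10, exceeded the next, c11, by only 0.09 with an SD between partners of 0.20. In the horizontal series Chrna7 hardly varied, from 6.46% in Ho1 to 9.81% in Ho7. In the sagittal series the profile was a trough. The lowest levels were 5.36% in S7 and 5.57% in So5, and the highest were 12.1% in S10, 12.8% in So3 and 12.3% in So9.

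Chrna5, an accessory subunit that alters the sensitivity of channels of Chrna4 and Chrnb2, was well above background in 55 of 61 fractions. It was near background at the caudal end, where C1 to C4 had 0.515%, 1.31%, 0.708% and 0.596% and only C2 was well above background. At C5 it was 8.90%, and it peaked at 13.9% in C6 and at 12.4% in the partner Co7. A second high stretch lay at C10 with 11.6% and Co12 with 10.0%. Dorsoventrally it was highest in H2 at 10.2% and Ho2 at 9.84%, and lowest in H6 and Ho7, both at 3.20%. The first pair was discordant, with 3.38% in H1 and 9.84% in Ho2.

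Chrnb3, an accessory subunit that assembles with the Chrna6 product in dopamine neurons, was well above background in 39 of 61 fractions. C1 to C3 had 0.247% to 0.253%, none well above background, and C6 had 6.11%, over a series median of 1.43%. In the other mouse it was 7.02% in Co7 and 6.48% in Co8, over a median of 1.18%. Both mice lost the signal again at the rostral end, with 0.338% in C13 and 0.241% in Co15. Near the midline it reached 4.88% in S6 and 6.39% in So5. Among the horizontal fractions only Ho7, at 0.696%, was not well above background.

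The pairs were then grouped to ask how the subunits differed along each body axis. Caudal pairs c1 to c4 were set against rostral pairs c10 to c13, with 8 fractions on each side. In this and the following comparisons the fractions came from only 2 mice per plane and were fitted as independent. The p-values therefore do not measure the spread between animals at large. Of the 8 subunits, 2 were higher caudally, where 27.8% of all probes were, and 4 were lower, where 19.9% were, by limma with Benjamini-Hochberg adjustment over all 36504 probes. The median difference was -0.96 for the subunits and 0.11 for all probes. Chrna4, read here from the brighter of 2 probes that disagreed, was higher caudally by 1.64 ± 0.09 (log2 difference ± SE; adjusted p = 1.37e-15), with caudal fractions between 30.0% and 70.9% and rostral fractions between 6.61% and 21.4%. Chrnb2 was higher by 0.44 ± 0.06 (adjusted p = 1.43e-07), with overlapping ranges. Chrna5 was lower caudally by the largest amount among the 8, with a difference of -2.60 ± 0.23 (adjusted p = 4.73e-11), and was well above background in 2 of 8 caudal and all 8 rostral fractions. Chrna7 and Chrna2 differed by -1.47 ± 0.10 and -1.46 ± 0.24, and Chrnb3 by -1.28 ± 0.22, although Chrnb3 was well above background in 1 of 8 caudal and 4 of 8 rostral fractions. Chrna3 (0.20 ± 0.35) and Chrnb4 (-0.64 ± 0.38) did not pass. With the slide as a fixed block, Chrna4 alone passed. Slides held runs of neighbouring fractions, such as C1 to C4 or C9 to C12, so slide and position were largely confounded.

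The middle coronal pairs c5 to c9 (10 fractions) were set against both ends (16 fractions). Here 4 of 8 subunits were higher in the middle, where 15.5% of all probes were, and 0 were lower, where 19.5% were. The median difference was 0.68 for the subunits and -0.06 for all probes. Chrnb3 was higher by 2.63 ± 0.17 (adjusted p = 2.98e-13) and was well above background in all 10 middle fractions and 5 of 16 end fractions. Chrna5 was higher by 2.16 ± 0.19 (adjusted p = 9.06e-11) and was well above background in all 10 middle and 10 of 16 end fractions. Chrna7 and Chrna4 were higher by 1.06 ± 0.08 and 1.03 ± 0.07. For these genes not every end pair was low. Pairs c10 and c11 had means of 9.43% and 9.19% for Chrna5, where middle pairs lay between 6.35% and 13.1%. For Chrna7 they had 13.9% and 13.1%, above every middle pair (5.68% to 12.6%). For Chrna4, c1 had 61.1%, within the middle range of 28.3% to 72.3%. The other 4 did not pass, with differences from -0.50 to 0.34.

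**Figure D3:**
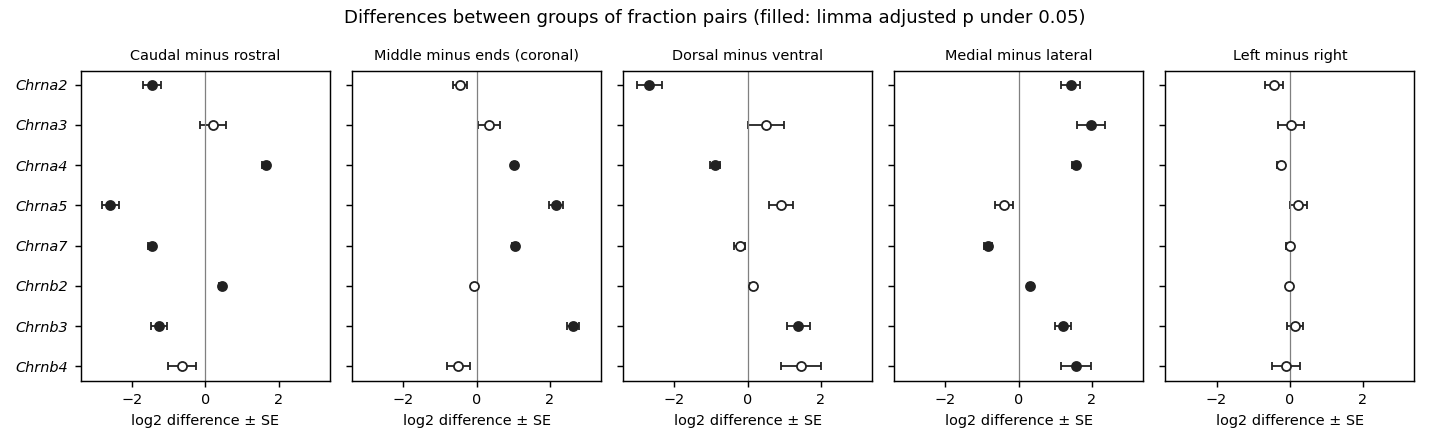
Log2 difference of each subunit between groups of fraction pairs along the coronal, horizontal and sagittal series, with the standard error as bars. Filled points passed limma's test at an adjusted p under 0.05 over all 36504 probes. In the medial comparison 6 subunits lay above 0 and passed and Chrna7 lay below it and passed, and none passed between left and right. The Chrna4 values are those of its brighter probe.

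Dorsal pairs h1 and h2 were set against ventral pairs h5 and h6, with 4 fractions on each side. Chrnb3 was higher dorsally, as were 5.77% of all probes, and Chrna2 and Chrna4 were lower, as were 8.45%. The median difference was 0.32 for the subunits and 0.01 for all probes. Chrna2 had a difference of -2.68 ± 0.34 (adjusted p = 1e-06), with dorsal fractions between 0.381% and 0.891% and ventral fractions between 3.18% and 5.56%, and was well above background in 1 of 4 dorsal and all 4 ventral fractions. Chrna4 was lower dorsally by a difference of -0.89 ± 0.13 (adjusted p = 9.83e-06), and Chrnb3 was higher by 1.38 ± 0.31 (adjusted p = 0.00166). Chrna5 (0.92 ± 0.33, adjusted p = 0.0559) and Chrnb4 (1.46 ± 0.54, adjusted p = 0.0709) did not pass. With the mouse as a replicate block both passed, at limma adjusted p = 0.04 and 0.0455, but calls rose among all probes too, to 12.2% higher and 15% lower. Without H1, the difference of Chrna5 was 1.31 (adjusted p = 0.00765) and that of Chrnb4 was 0.81 (adjusted p = 0.461). When slide was fitted as a fixed term, limma gave adjusted p = 0.0912 for Chrna2, 0.0539 for Chrna4 and 0.317 for Chrnb3. In both mice the dorsal fractions lay on another slide than the ventral ones, so slide and position were largely confounded here too.

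Medial pairs s4 to s6 (6 fractions) were set against lateral pairs on both sides (8 fractions). Here 6 of 8 subunits were higher medially, where 10.5% of all probes were, and 1 was lower, where 9.09% were. The median difference was 1.31 for the subunits and 0.00 for all probes. Chrna4, read from the brighter of its 2 probes, was higher by 1.55 ± 0.10 (adjusted p = 1.41e-12), with medial fractions between 49.5% and 62.8% and lateral fractions between 15.3% and 22.0%. Chrna3 was higher medially by 1.98 ± 0.38 (limma adjusted p = 2.43e-04). None of 8 lateral and only 2 of 6 medial fractions were well above background, so the size of this difference is uncertain. Chrnb4 was higher by 1.56 ± 0.41 (limma adjusted p = 0.00604), but without So5 its adjusted p was 0.0648. The size of the Chrnb4 difference is uncertain too, with 0 of 8 lateral and 3 of 6 medial fractions well above background. Chrna2 (1.42 ± 0.26), Chrnb3 (1.21 ± 0.23) and Chrnb2 (0.32 ± 0.06) were also higher, each with overlapping ranges. Chrna2 was well above background in 3 of 6 medial and 1 of 8 lateral fractions, and Chrnb3 in 6 of 6 and 3 of 8. The sizes of these differences are therefore uncertain as well. With fractions paired by equal number, Chrnb3 and Chrnb4 did not pass (limma adjusted p = 0.0739 and 0.168). Chrna7 was the one that went the other way, with a difference of -0.85 ± 0.11 (adjusted p = 8.76e-07), medial fractions between 5.36% and 7.24%, and lateral fractions between 8.84% and 12.8%. Chrna5 did not pass (-0.41 ± 0.25).

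Between left and right sagittal pairs (s1 to s4 and s6 to s9, 8 fractions each), 0 of 8 subunits passed limma's test, where 0.0384% of all probes were higher and 0.0986% lower on the left. At an unadjusted p under 0.05 there was 1 subunit, Chrna4, with a difference of -0.25 ± 0.09 (adjusted p = 0.484). It passed with the mouse as a replicate block (adjusted p = 0.0204) and with the scan day as a block (adjusted p = 0.0238). In these settings 0.688% and 0.732% of all probes were lower on the left. Scaling each array on its median in place of the 75th percentile shifted all probes by -0.15 in the caudal and -0.11 in the medial comparison. It moved the share of calls that were higher from 58.2% to 41.0% for caudal, from 53.6% to 31.7% for medial, from 40.6% to 55.9% for dorsal and from 28% to 45% for left fractions, and no called subunit changed direction.

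A second probe was present for 4 subunits. For Chrna7 it correlated with the first at r = 0.88 over the 61 fractions centred per series, for Chrnb3 at 0.82 and for Chrna3 at 0.76. For Chrna4 the value was only 0.46, although both probes were well above background in all 61 fractions. The second Chrna4 probe was also higher in the middle of the coronal series (1.29 ± 0.08), but it was lower caudally, with a difference of -0.40 ± 0.10 (adjusted p = 0.00123). Its medial and dorsal differences were -0.15 ± 0.11 and 0.31 ± 0.14 and did not pass. The caudal, medial and ventral excess of Chrna4 was thus a property of 1 of its 2 probes. For Chrna3 the second probe, well above background in 10 fractions, had a medial difference of 0.84 ± 0.42 (adjusted p = 0.179). For Chrnb3 the medial difference held (1.47 ± 0.33) and the caudal and dorsal differences (-0.34 ± 0.31 and 0.91 ± 0.43) did not pass.

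Each subunit was next read at the peaks of genes that mark 12 brain regions. In each of the 6 mice, the level in the fraction where the marker was highest was set against the mean of the other fractions of that mouse. Of 96 combinations, 26 had the same sign in 6 of 6 mice, 20 of them higher and 6 lower. The same count was not made over all probes, so it does not set the subunits apart from other genes. With 6 mice the exact two-sided sign-flip test cannot give a p below 0.0312, and after Benjamini-Hochberg adjustment over the 96 combinations the smallest value was 0.115, so none passed. Several markers peaked in the same fraction, so that 1 value served more than 1 region. S6 was shared by the markers of habenula, raphe and thalamus, and H3 and Ho4 by those of habenula, raphe and olfactory bulb. The hippocampal marker shared H2, Ho2 and So2 with the neocortical one, and H2 and S3 with the cerebellar one. A fraction also holds many regions besides the marked one.

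Chrnb4 was higher in the olfactory bulb peak by 1.77 ± 0.79 (mean log2 difference ± SD, 6 of 6 mice) and in the medial habenula peak, marked by Gpr151, by 1.36 ± 0.70 (6 of 6 mice). With Pou4f1 as the habenula marker the mean difference was -0.99. The differences with Gpr151 were 0.53 in C, 1.13 in Co, 0.61 in H, 1.78 in Ho, 2.07 in S and 2.06 in So. The H and Ho values are also those of the olfactory bulb peak, since both markers were highest in H3 and Ho4. At the striatal peak Chrnb4 had a difference of -1.43 ± 1.13 (lower in 6 of 6 mice). Of the 6 peak fractions (C9, Co11, H6, Ho6, S9 and So8) it was well above background only in Ho6, so the size of this difference is uncertain. Chrna3 had 1.16 ± 0.94 at the habenula peak and 0.92 ± 0.64 at the olfactory bulb peak, in each case higher in 5 of 6 mice.

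Chrna4, read from its brighter probe, was higher in 6 of 6 mice at 7 of the 12 peaks, among them that of midbrain dopamine neurons marked by Slc6a3 (1.14 ± 0.19, but -0.06 with Th as the marker), and lower in 6 of 6 mice at the neocortical peak (-0.65 ± 0.14). Chrna5 was the opposite at the neocortical marker Myl4, with a difference of 1.17 ± 0.42 (higher in 6 of 6 mice), and also higher in 6 of 6 mice at the hippocampal marker Spink8 (1.11 ± 0.56). It was lower in 6 of 6 mice at the hindbrain peak (-1.05 ± 1.19), where the C and Co mice contributed -2.98 and -2.07. These came from C1 and Co2, in which Chrna5 was not well above background. Chrna2 was lower in 6 of 6 mice at the hippocampal (-1.42 ± 0.43) and cerebellar (-1.37 ± 0.76) peaks and higher in 6 of 6 at that of dopamine neurons (0.72 ± 0.67). It was not well above background in H2, S3 and So2 at the hippocampal peak, nor in H2, Ho3, S3 and So10 at the cerebellar one. Chrna7 had the same sign in all mice at none of the 12.

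**Figure D4:**
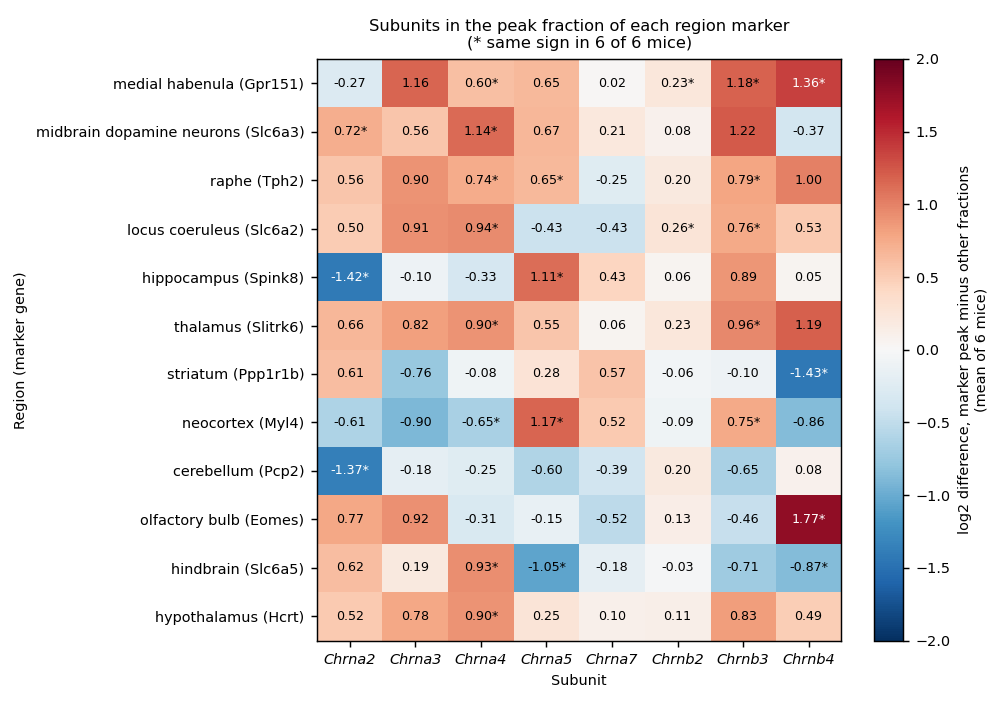
Mean log2 difference over 6 mice between the fraction where a region's marker gene peaked and the other fractions of the same mouse, for each subunit. An asterisk marks the same sign in 6 of 6 mice. The highest value was 1.77 for Chrnb4 at the olfactory bulb marker and the lowest -1.43 for Chrnb4 at the striatal marker, and no combination passed after adjustment. At the striatal marker Chrnb4 was well above background only in Ho6 of the 6 peak fractions.

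The profiles of the subunits were compared by Pearson's r over the 61 fractions after centring each series, as a description, since neighbouring fractions and fractions of 1 mouse share tissue. Over the 28 pairs of subunits r ranged from -0.43 to 0.82 with a median of 0.01. Chrna5 with Chrna7 had r = 0.82, Chrna3 with Chrnb4 had 0.76 and Chrna5 with Chrnb3 had 0.75. Chrna3 with Chrnb4 was positive in every series (0.63 in C, 0.80 in Co, 0.92 in H, 0.91 in Ho, 0.66 in S and 0.87 in So). The sagittal values rest mostly on signal near background. Chrna3 was well above background in 1 of 9 S and 1 of 10 So fractions, and Chrnb4 in 1 of 9 and 2 of 10. H and Ho held only 6 and 7 fractions. Chrna5 with Chrna7 was also positive in every series but rested on the coronal ones (0.87 and 0.90, against 0.12 to 0.56 in the others). Chrna5 with Chrnb3 was high in C (0.81), Co (0.86) and H (0.75), lower in Ho (0.47) and near 0 in S (0.13) and So (-0.16). Chrna5 with its neighbours in the gene cluster had r = -0.10 for Chrna3 and -0.12 for Chrnb4. Chrna4, read from its brighter probe, had r = 0.43 with Chrnb2 and was positive in every series, between 0.21 in C and 0.77 in So.

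**Figure D5:**
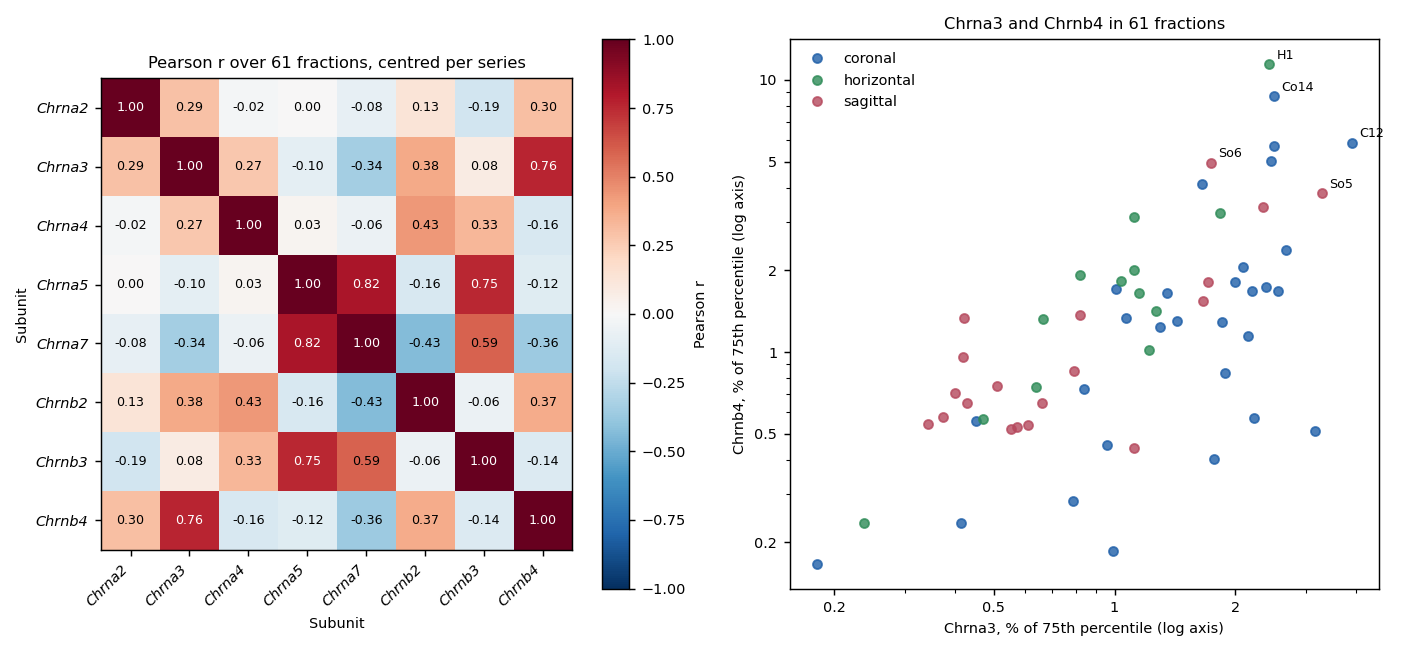
Left, Pearson r between the subunits over 61 fractions centred per series. Right, level of Chrnb4 against Chrna3 in each fraction on log axes, as percentages of the array's 75th percentile, coloured by plane. Chrna3 and Chrnb4 (r = 0.76) varied together, but were well above background in only 32 and 29 of the 61 fractions. The labelled points are H1, Co14, C12, So5 and So6.

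A search over 13153 genes (1 probe each, well above background in at least 20 fractions) named the profiles most like each subunit. Chrna3 and Chrnb4 were each the most alike gene of the other, at r = 0.76, although well above background in only 32 and 29 of the 61 fractions. For Chrna3 the next were Sfrp2 (0.72) and Vash2 (0.68), and for Chrnb4 they were Wif1 and Bambi (both 0.71). The genes most like Chrna5 were Neurod6 (0.91) and Fezf2 (0.91), transcription factors of cortical excitatory neurons, and Thbs4 (0.90). Those most like Chrna7 were Myo5b (0.95), Otulinl (0.93) and Klhl2 (0.93). For Chrna4, read from its brighter probe, they were Alox8 (0.93), Disp2 (0.93) and Slc17a8 (0.92), which encodes a vesicular glutamate transporter. For Chrnb2 they were Smg1 (0.88), Syt9 (0.87) and Sema4g (0.87), for Chrnb3 Tenm2 (0.84), Ica1l (0.81) and Lrrtm2 (0.80), and for Chrna2 Pbx3 (0.82), BC052040 (0.80) and Dll1 (0.79).

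The other genes of nicotinic signalling were read from a list of 21, of which 18 could be tested and 13 varied over the pairs, as did 61.2% of all probes. Among 5 genes of acetylcholine metabolism, 4 varied: Chat, the synthesizing enzyme, the vesicular and choline transporters Slc18a3 and Slc5a7, and Ache, which degrades the transmitter. All 4 were higher caudally, ventrally and medially, where 27.8%, 8.45% and 10.5% of all probes were. Slc5a7, the choline transporter of cholinergic terminals, had differences of 2.34 caudally (adjusted p = 1.34e-09), -4.67 dorsally (adjusted p = 3.76e-11) and 2.79 medially (adjusted p = 2.16e-09). Bche did not vary (adjusted p = 0.228).

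Of 6 other subunits tested, 3 varied (Chrna1, Chrna6 and Chrne), and Chrnb1, Chrnd and Chrng did not pass. Chrna6, which joins Chrnb3 in dopamine neurons, was 21.4% in C6, 17.0% in Co7 and 12.9% in Co8, and at most 6.08% (C5) in the other coronal fractions. It was higher medially by 2.73 (adjusted p = 5.31e-11) and in the middle by 1.69 (adjusted p = 4.94e-10). Its profile correlated with that of the brighter Chrna4 probe at r = 0.76 and with that of its genomic neighbour Chrnb3 at 0.47. Among 7 tested chaperones and modulators, 6 varied and Ric3, which promotes assembly of the Chrna7 product, did not pass (adjusted p = 0.587). Lypd1 and Lypd6, which encode small membrane-anchored proteins of the Ly6 family, were lower medially by differences of -0.69 and -0.33 and higher in the middle by 1.44 and 0.51. Their dorsal differences had opposite signs (-0.84 and 0.49). Ly6e, of the same family, was lower medially by a difference of -0.69 and higher in the middle by 0.47.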

How the data were processed

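RNA of each fraction was labelled with Cy3 and hybridised to an Agilent whole mouse genome array (design 014868 per the file headers), 1 colour and 1 array per fraction. Spot intensities were deposited after background subtraction in Agilent Feature Extraction 9.1.3.1 (gProcessedSignal), beside a table of intensities on a linear scale normalized per array. That table served as an alternative. Fold changes or p-values of the authors were not used.

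From the deposited intensities, 2299 spots flagged as outliers over all 61 arrays were left out, log2 values of 43379 non-control spots were averaged over the 41174 probes, and the 75th percentile of each array was subtracted (737.5 to 1919.0, median 1204.6). Genes were named through the RefSeq accession of the probe for 22951 probes, and the probe with the highest mean intensity was used. Precision is limited by how many arrays there were. The 8 subunits, the gene lists and the tests were chosen with earlier results of these data known.

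A model with 28 pairs of fractions (56 arrays; Hn with Ho n+1, and so on, from the table of paired fractions of the study) was fitted in limma 3.58.1 (R 4.3.3) to 36504 probes well above background on at least 1 array. The S fractions carry the numbers of the labels, 2 to 10, whereas that table numbers them 1 to 9. Its fraction n was assumed to be label n+1, and each was paired with the So fraction of the same number. A difference is the mean of the pair means of each side. Its p-value measures the spread between fractions of 2 mice, which the study paired by their correlation in these data. Exact permutation tests were run in scipy 1.17.1. The limma fit was tested on simulated data. Their noise was independent between arrays, so that test does not cover fractions of 1 mouse or slide that deviate together. Fractions of the same mouse deviated together from the pair means (median r = 0.279, over 0.1 in 228 of 258 combinations), so the mouse was tried as a block. Alternatives were median scaling, the authors' table, normexp (offset 50) with quantile normalization, probe filters, slide and scan day (16 slides, 5 days) as blocks, other pairings, a second probe, a floor of 5, and leaving out each array.

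Genes named were all 8 subunits, the lists, and the 3 genes with the most similar profile. Ly6h lacked values in 11 fractions and was not fitted, and Chrna9 and Chrna10 had no probe matched through RefSeq. A marker result that could not be printed is not reported here.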

Additional observations from a re-analysis of the deposited data

Results flagged for a closer look

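In 32 profiles of 1 subunit in a series of 6 to 10 fractions, 2 had a fraction far from the others by Dixon's criterion, which chance meets in about 1 of 20. Chrnb2 was 59.4% of the 75th percentile in Ho1, the unpaired most dorsal fraction, with the nearest of the other Ho fractions at 100%. In the same fraction Snap25, a gene of all neurons, was at its highest of the Ho series (5660%). Chrnb3 was 0.696% in Ho7, not well above background, with the nearest of the other Ho fractions at 3.08%.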

How the results depend on the processing

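Of the 28 F statistics and called differences of single subunits, all kept direction and call with the authors' table, median scaling, a floor of 5, no filter, no moderation, the mouse as a replicate block, the scan day as a block and the slide as a random block. Leaving out each array ended 1 call, that of Chrnb4 medially without So5, and counts ran from 3 to 4 dorsally (Chrna5 passed without H1, adjusted p = 0.00765) and from 4 to 5 in the middle. Counts that moved by over 1.5 times and reversals follow, and their cause was not tested unless given. With probes well above background on all arrays, only Chrna4 and Chrnb2 remained to test, and 2 varied, 2 differed caudally, 1 in the middle, 1 dorsally and 2 medially. The middle count was 6 with the scan day as a block, where 22.1% of all probes were higher and 28% lower. With fewer pairs, 3 subunits varied over the horizontal (12.6% of probes), 2 over the sagittal (6.54%) and 7 over the coronal pairs alone (37.7%, Chrna3 having adjusted p = 0.228). With the slide as a fixed block, 1 subunit passed caudally and 0 dorsally (a medial value could not be fitted). In that setting 5.06% of all probes were higher and 4.72% lower caudally, and 1.83% and 2.56% dorsally. Dorsally, 5 passed with the mouse as a replicate block, where 12.2% of all probes were higher and 15% lower. With normexp and quantile normalization 5 passed, where 5.75% were higher and 6.31% lower, and 1 passed with the second probes. Left from right, 1 passed with the mouse as a replicate block, where 0.866% of all probes were higher and 0.688% lower. With the scan day as a block 1 passed, where 1.58% were higher and 0.732% lower. Under normexp the medial difference of Chrnb4 was 0.33 (adjusted p = 0.0562). The second probe of Chrna4 reversed the caudal (-0.40), dorsal (0.31) and medial (-0.15) differences. The median correlation between subunits was -0.04 without centring. With a second marker for 11 of the 12 regions, 5 differences reversed: at the habenula (Pou4f1, highest in C1 and Co1) Chrna4 (-0.02), Chrnb2 (-0.50), Chrnb3 (-0.40) and Chrnb4 (-0.99), and at midbrain dopamine neurons (Th, highest in C13 and Co15) Chrna4 (-0.06). Pairing fractions by equal number ended 5 calls of single subunits, among them the F tests of Chrna3 and Chrnb4. Signal limits Chrna3 and Chrnb4 most.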
